A study of Mus musculus with 48 samples.

Results

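Hgsnat and 6 other genes that encode lysosomal enzymes of heparan sulfate breakdown (Naglu, Sgsh, Ids, Idua, Arsg and Gusb) were followed through kidney slices kept in culture. The 7 genes were found by their symbols among the 55487 gene IDs of the deposited table of raw read counts, and all 7 passed the filter on low counts in every comparison. Hgsnat had been picked for its result in these libraries, since its change between 24 h controls, 6 h controls and normoxia differed between the strains, and its values in those comparisons are therefore given as a description without a test. The other 6 were chosen by function. The study sequenced RNA from 48 slice cultures of male mice, from the inbred strain C57BL/6J or the inbred strain DBA/2J, with 3 libraries for each of 16 groups. In each strain, slices were cultured as controls, with tunicamycin (an inhibitor of N-linked glycosylation) or with cyclosporin A (a calcineurin inhibitor), for 6 h and for 24 h. A pair of further groups in each strain, titled with 24 h, were kept under normoxia, labelled as an ischemia model, or under normoxia followed by hyperoxia, labelled as a reperfusion model. The oxygen level of the control slices, the timing of the oxygen switch, the drug doses and the ages of the mice are not stated in the labels. The titles list the oxygen groups under a different heading than the controls and drugs, and that division cannot be told apart from the oxygen conditions. All groups share ex vivo culture, and no uncultured kidney was included in the comparisons.

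Heparan sulfate is a long sulfated sugar chain carried by cell surface and matrix proteoglycans, which in the kidney are prominent in the glomerular basement membrane and on tubule cells. After uptake, lysosomes take the chain apart from its non-reducing end by enzymes that act in a fixed order, each preparing the substrate of the next. Ids removes the sulfate from terminal iduronic acid and Idua then removes that sugar, while Gusb removes glucuronic acid. Sgsh removes the N-linked sulfate of glucosamine, Hgsnat, a protein of the lysosomal membrane, acetylates the freed amino group with acetyl-CoA from the cytosol, and Naglu cleaves off the resulting N-acetylglucosamine. Arsg removes the 3-O-sulfate of glucosamine. Loss of these enzymes causes mucopolysaccharidoses, lysosomal storage diseases, and loss of HGSNAT causes Sanfilippo syndrome type C.

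Hgsnat (ENSMUSG00000037260) lies at chr8:25944453-25976753 of GRCm38, on the minus strand. Naglu (ENSMUSG00000001751) at chr11:101070012-101077672, Sgsh (ENSMUSG00000005043) at chr11:119343425-119355536 and Arsg (ENSMUSG00000020604) at chr11:109473374-109573330 share chromosome 11. Idua (ENSMUSG00000033540) at chr5:108660331-108684557 and Gusb (ENSMUSG00000025534) at chr5:129989011-130003049 share chromosome 5, and Ids (ENSMUSG00000035847) lies at chrX:70343069-70365084. No annotated gene overlaps Hgsnat, Naglu, Ids or Gusb. Sgsh overlaps Card14, Arsg overlaps Slc16a6 and Gm22378, and Idua overlaps Dgkq and Slc26a1. Since the strand setting of the counting is not given in the sources used here, reads of these overlapping genes could enter the counts of Sgsh, Arsg and Idua.

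Naglu and Sgsh carry the 8-base sequence GTCACGTG close to their RefSeq start sites, and the windows of Arsg, Gusb, Ids and Idua do not. Its inner CACGTG is the E-box core bound by basic helix-loop-helix factors, among them Tfeb and Tfe3, known regulators of lysosomal genes. The 30-base windows around it, from RefSeq on GRCm38.p6, are shown with that sequence in capitals, at chr11:101070008-101070037 on the plus strand for Naglu and at chr11:119355521-119355550 on the minus strand for Sgsh, where the match is on the opposite strand of the gene.
Naglu: ccaaccttcagGTCACGTGgcccgaggtcg
Sgsh: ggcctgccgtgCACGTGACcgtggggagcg
The matches were placed -75 and -29 bases from the RefSeq start of Naglu and Sgsh. RefSeq windows from 250 bases before to 50 bases after a start were matched for 6 of the 7 genes and searched on both strands. GTCACGTG was present in 2.25% of 32851 such windows over all genes. The shorter CACGTG, which every GTCACGTG contains, was present in 7.15%, and ACGTG, contained in both, in 19.6%. In the windows of Arsg (2 starts), Gusb, Ids and Idua none of the 3 sequences was found, and the correlation of log2 group means with Sgsh (n = 16 groups, which share strains and conditions) was 0.947 for Arsg and 0.969 for Gusb, beside 0.923 for Naglu. A match or its absence describes these letters only, and binding at these windows was not measured.

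Library totals ranged from 5619309 reads (DBA/2J normoxia-hyperoxia replicate 2) to 25137581, with the next lowest at 12384733 and a median of 19607361. The highest correlation between any 2 libraries was 0.9941, and none were duplicates. Levels below are counts scaled to a library total of 1000000 (CPM), and fold changes come from edgeR's quasi-likelihood F test after trimmed mean of M-values (TMM) normalization, which also corrects for shifts in the makeup of the libraries. A change was called at a Benjamini-Hochberg adjusted p under 0.05 over all genes tested. The labels number the libraries as biological replicates without saying whether these were separate mice, so p-values measure the spread between these libraries. Markers of proximal tubule, endothelium and macrophages were detected in every group. In bulk slices, fewer cells of a type and less RNA per cell cannot be told apart.

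Hgsnat was read at a high level in 9 of the 48 libraries, those of C57BL/6J slices kept for 24 h as controls or with either drug. In those 9 libraries Hgsnat ranged from 272.9 to 347.5 CPM with a median of 305.1 CPM. The other 39 libraries ranged from 31.9 to 84.1 CPM with a median of 50.7 CPM. No library fell between these ranges, and the 9 libraries include every C57BL/6J library at 24 h outside the oxygen conditions and no DBA/2J library.

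**Figure D1:**
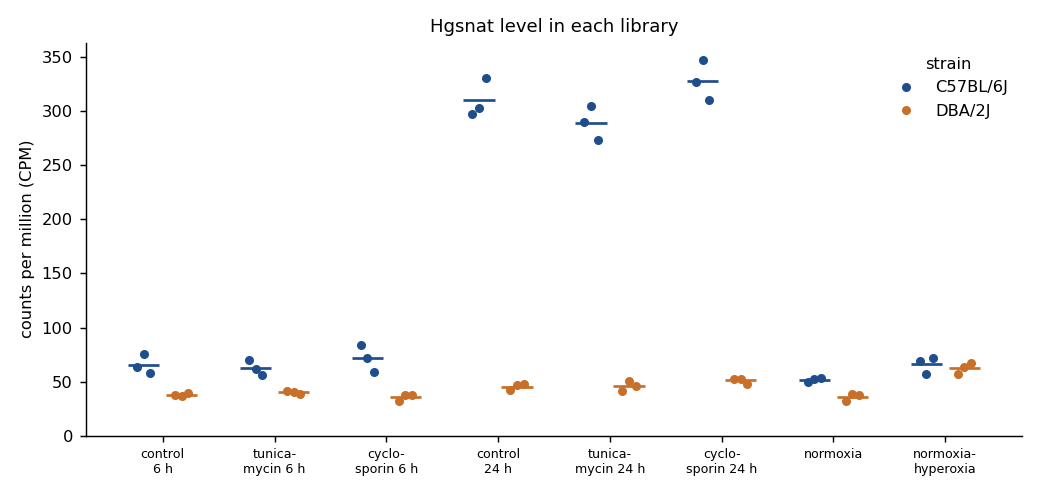
Hgsnat level in CPM (vertical axis, linear scale) in each of the 48 libraries by condition and strain. Dots are libraries and horizontal bars are group means. The 9 C57BL/6J libraries of the 24 h controls and drug groups sit between 272.9 and 347.5 CPM, and all others sit at or below 84.1 CPM.

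In C57BL/6J controls, Hgsnat was at 63.3, 75.5 and 57.8 CPM at 6 h and at 296.9, 302.8 and 330.6 CPM at 24 h. The DBA/2J controls were at 37.2, 36.6 and 39.2 CPM at 6 h and at 41.9, 46.5 and 47.4 CPM at 24 h. All C57BL/6J libraries thus lay above all DBA/2J libraries at both times, and within each strain all 24 h libraries lay above all 6 h libraries, by a wide gap in C57BL/6J and a narrow one in DBA/2J. The log2 fold change from 6 h to 24 h was 1.97 (SE 0.105) in C57BL/6J and 0.11 (SE 0.105) in DBA/2J. The level was 6.996-fold lower in DBA/2J than in C57BL/6J at 24 h after TMM normalization. These contrasts are the ones that Hgsnat was picked for or share their libraries.

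Over the 16 groups, the mean Hgsnat level was highest in C57BL/6J with cyclosporin A at 24 h (328.1 ± 18.8 CPM, SD, n = 3), then in the C57BL/6J 24 h controls (310.1 ± 18 CPM) and C57BL/6J with tunicamycin at 24 h (289.2 ± 16.1 CPM). Libraries of neighbouring groups overlapped within these 3. A gap then separated them from C57BL/6J with cyclosporin A at 6 h, C57BL/6J normoxia-hyperoxia, C57BL/6J 6 h controls, DBA/2J normoxia-hyperoxia and C57BL/6J with tunicamycin at 6 h, whose neighbours in the order overlapped. C57BL/6J normoxia came next (51.7 ± 2.14 CPM) and did not overlap the group above it. It was followed by DBA/2J with cyclosporin A, with tunicamycin and without a drug, all at 24 h. The lowest 4 groups, which did not overlap the group above them, were DBA/2J with tunicamycin at 6 h, the DBA/2J 6 h controls, DBA/2J normoxia and DBA/2J with cyclosporin A at 6 h (35.8 ± 3.36 CPM), none of them apart from its neighbour within this set. Per kilobase of annotated exon, C57BL/6J 24 h controls held 93.8 CPM and DBA/2J 24 h controls 13.7 CPM of Hgsnat. Averaged over all libraries on the same per-kilobase scale, the level was 30.2 CPM for Hgsnat, a mean raised by the 9 high libraries, Ids 10.1, Naglu 9.34, Gusb 9.33, Arsg 4.46, Sgsh 3.51 and Idua 2.19 CPM. Hgsnat had the highest mean of the 7 in every C57BL/6J group. In DBA/2J normoxia Hgsnat, at 10.9 CPM per kilobase, was below Gusb at 27.5, Naglu at 25.4, Arsg at 16.4 and Ids at 11.3, and in DBA/2J 6 h controls, at 11.4, it was below Gusb at 14.5, Naglu at 12.8 and Ids at 12.2.

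The drug libraries had no part in the choice of Hgsnat, and the strain and time comparisons were tested in them. They share strains, times and possibly mice with the controls, and few or no genes were called between drugs and controls. The tests below therefore describe the same difference in further libraries and are no independent support for it. With tunicamycin at 24 h, Hgsnat was at 289.6, 305.1 and 272.9 CPM in C57BL/6J and at 41.6, 50.7 and 45.6 CPM in DBA/2J. With cyclosporin A at 24 h, the levels were 327.0, 347.5 and 309.9 CPM in C57BL/6J and 52.7, 52.6 and 48.1 CPM in DBA/2J. The strains did not overlap under either drug. Hgsnat was 6.547-fold lower in DBA/2J with tunicamycin (log2 -2.71, SE 0.087, edgeR adjusted p = 7.54e-10) and 6.833-fold lower with cyclosporin A (log2 -2.77, SE 0.0871, adjusted p = 4.98e-10).

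At 6 h the strains differed by less, in the same direction. Hgsnat was at 69.8, 61.8 and 56.1 CPM in C57BL/6J and at 41.7, 40.01 and 38.4 CPM in DBA/2J with tunicamycin. It was at 84.1, 72.2 and 58.5 CPM in C57BL/6J and at 31.96, 38.01 and 37.5 CPM in DBA/2J with cyclosporin A. The strains again did not overlap. Hgsnat was 1.689-fold lower in DBA/2J with tunicamycin (log2 -0.76, SE 0.137, edgeR adjusted p = 0.00211) and 2.23-fold lower with cyclosporin A (log2 -1.16, SE 0.138, adjusted p = 9.86e-05).

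From 6 h to 24 h with tunicamycin, Hgsnat rose 3.914-fold in C57BL/6J (log2 1.97, SE 0.112, edgeR adjusted p = 4.95e-08). In DBA/2J the log2 change was 0.02 (SE 0.11, adjusted p = 0.893), with a 95% interval from -0.2193 to 0.2572. The difference between the strains' changes was -1.95 on the log2 scale (SE 0.156, adjusted p = 6.71e-05). With cyclosporin A, Hgsnat rose 3.718-fold in C57BL/6J (log2 1.89, SE 0.117, adjusted p = 1.82e-07), and the log2 change in DBA/2J was 0.24 (SE 0.116, adjusted p = 0.085; 95% interval -0.0064 to 0.4931). The difference was -1.65 (SE 0.163, adjusted p = 0.000968). All 3 C57BL/6J libraries at 24 h lay above all 3 at 6 h under both drugs, and in DBA/2J the times overlapped with tunicamycin and were apart with cyclosporin A. This comparison over time within a drug was added after the data had been seen. Of the 7 members, Hgsnat alone was called for a strain difference in the change over time in these fits, where 0.379% of all genes were called with tunicamycin and 0.262% with cyclosporin A. With cyclosporin A the call extended under some alternatives to Sgsh (log2 -0.75, adjusted p = 0.00478 by DESeq2; -0.72, adjusted p = 0.00955 in the fit of all 48 libraries; -0.79, adjusted p = 0.0417 without C57BL/6J cyclosporin A 6 h replicate 3). It extended to Naglu in the fit of all 48 libraries (-1.05, adjusted p = 0.0305) and without that same replicate (-1.52, adjusted p = 0.0269).

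Against the controls of the same time, the log2 difference of Hgsnat as a mean of the strains was 0.01 (SE 0.0871) for tunicamycin and 0.05 (SE 0.0984) for cyclosporin A at 6 h. At 24 h it was -0.03 (SE 0.0578) for tunicamycin and 0.11 (SE 0.0491) for cyclosporin A. These differences are given without a test because the controls took part in the choice.

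In the oxygen conditions C57BL/6J slices were in the lower range. Under normoxia, Hgsnat was at 49.3, 52.4 and 53.5 CPM in C57BL/6J and at 31.9, 38.3 and 37.8 CPM in DBA/2J. With normoxia followed by hyperoxia, C57BL/6J slices had 68.9, 57.3 and 71.6 CPM and DBA/2J slices 57.4, 63.2 and 67.01 CPM. Normoxia kept the strains apart, whereas under normoxia-hyperoxia the strains overlapped. Against the 24 h controls, Hgsnat in C57BL/6J differed by -2.37 (SE 0.079) under normoxia and by -2.04 (SE 0.0906) under normoxia-hyperoxia on the log2 scale. In DBA/2J the difference was 0.61 (SE 0.0913) under normoxia-hyperoxia. In DBA/2J under normoxia every library was below every control in CPM, while the log2 difference after TMM normalization was -0.00 (SE 0.0784), so that its direction depends on the scaling. As ratios of mean CPM, C57BL/6J over DBA/2J was 6.85 in the 24 h controls, 6.3 with tunicamycin and 6.42 with cyclosporin A at 24 h, 1.44 under normoxia, 1.05 under normoxia-hyperoxia and 1.74 in the 6 h controls. The differences against the 24 h controls share those libraries, which took part in the choice of the gene, and are a description.

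Of 22 annotated genes within 250 kilobases of Hgsnat, 15 had enough reads to be tested in the 24 h control comparisons. In the 24 h controls 4 of these 15 were lower in DBA/2J and none higher, where 8.27% of all genes were lower and 13.9% higher. They were Star (log2 -2.41, edgeR adjusted p = 4.59e-07), Pomk, Bag4 (-0.51, adjusted p = 0.00347) and Ash2l (-0.31, adjusted p = 0.0415, lost in 8 of 18 alternative settings). Pomk, which encodes protein O-mannose kinase, is the nearest at chr8:25980604-25994133, 3851 bases from Hgsnat on the same strand. In C57BL/6J controls Pomk was at 8.17, 6.71 and 8.74 CPM at 6 h and at 19.2, 19 and 17.8 CPM at 24 h. In DBA/2J controls it was at 9.18, 8.02 and 9.43 CPM at 6 h and at 11.9, 9.99 and 11.7 CPM at 24 h. The strains overlapped at 6 h and were apart at 24 h. Pomk rose in C57BL/6J (log2 0.98, SE 0.132, edgeR adjusted p = 1.65e-05), while the change in DBA/2J was 0.18 (adjusted p = 0.254) and the difference between the strains' changes was -0.80 (adjusted p = 0.0701).

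In the drug libraries the strain difference in Pomk's change over time passed the test with tunicamycin (log2 -1.05, SE 0.178, edgeR adjusted p = 0.0214) and with cyclosporin A (-1.22, SE 0.175, adjusted p = 0.014). These calls were lost in 5 of 18 alternative settings with tunicamycin and in 4 of 18 with cyclosporin A, with adjusted p up to 0.147 and 0.0718. Pomk was lower in DBA/2J in the 24 h controls (log2 -0.77, adjusted p = 0.000618), with tunicamycin (-0.91, adjusted p = 0.00036) and with cyclosporin A (-0.93, adjusted p = 0.00024). From 24 h controls to normoxia, Pomk rose in DBA/2J (log2 0.82, adjusted p = 9.57e-06) and was lower in C57BL/6J by a call lost in 9 of 18 alternative settings (-0.29, adjusted p = 0.031), and the strain difference was 1.10 (SE 0.162, adjusted p = 0.000447). Hgsnat differed the other way round, with its change in C57BL/6J and little in DBA/2J.

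Star, which encodes a protein that brings cholesterol into mitochondria for steroid synthesis, lies 128471 bases from Hgsnat at chr8:25806555-25815982. Star was at 17.3, 22.9 and 19.4 CPM in C57BL/6J and at 4.21, 3.30 and 3.92 CPM in DBA/2J 24 h controls, against 3.91, 4.28 and 4.29 CPM and 0.959, 0.983 and 1.60 CPM at 6 h. The strains were apart at both times and the level rose over time in both strains. The log2 change was 1.98 in C57BL/6J (edgeR adjusted p = 4.88e-07) and 1.55 in DBA/2J (adjusted p = 4.08e-05), and the difference between them was -0.44 (adjusted p = 0.579). From 24 h controls to normoxia Star fell by 3.97 on the log2 scale in C57BL/6J (adjusted p = 1.8e-10) and by 1.18 in DBA/2J (adjusted p = 0.000223), and the strain difference was 2.79 (adjusted p = 9.85e-05). In that comparison 4 of the 15 neighbours tested had a strain difference, all higher, where 10.1% of all genes did.

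**Figure D2:**
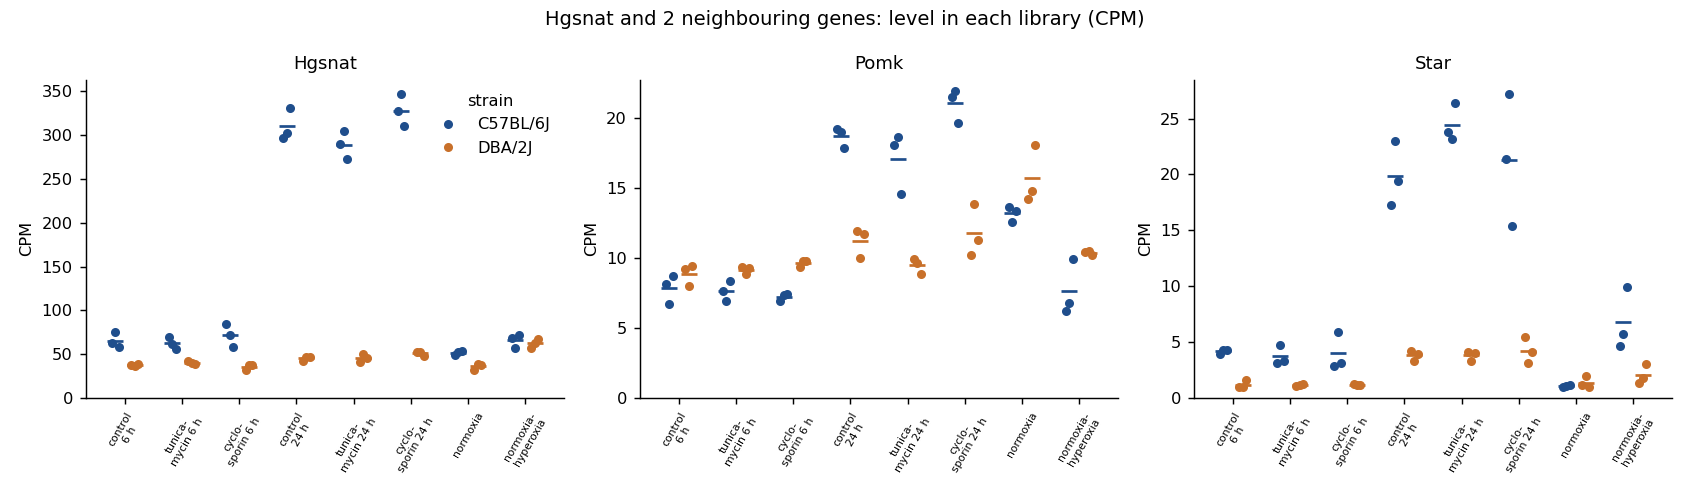
Levels in CPM (vertical axes, linear scale) of Hgsnat and its chromosomal neighbours Pomk and Star in each library by condition and strain. Dots are libraries and bars are group means. In the 24 h controls Pomk was at 17.8 to 19.2 CPM in C57BL/6J and 9.99 to 11.9 CPM in DBA/2J, and Star was lower in DBA/2J at both times.

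Among 12216 genes with a mean log2 CPM of at least 1, the 5 whose log2 group means over the 16 groups were most like those of Hgsnat by Pearson's r were Ifi27 (r = 0.928), Armc8 (0.921), Sft2d2 (0.915), Nbeal2 (0.913) and Rnf144a (0.912). Ifi27 had a mean of 35.2 CPM at 6 h and 65.5 CPM at 24 h in C57BL/6J controls and of 31 and 38.7 CPM in DBA/2J. Rnf144a was at 21.6 and 46.5 CPM in C57BL/6J and at 12.1 and 13.7 CPM in DBA/2J. These groups share strains and times, and the ranking is a description.

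The other 6 genes had other patterns over the same libraries. Across the 16 groups, Arsg had the widest range of group means, 13-fold from lowest to highest. Hgsnat ranged over 9.16-fold, Naglu 7.35-fold, Gusb 6.12-fold, Sgsh 3.87-fold, Idua 2.61-fold and Ids 1.73-fold. The correlations of log2 group means (n = 16 groups, which share strains and conditions) among Naglu, Sgsh, Arsg and Gusb lay between 0.896 and 0.969. With Hgsnat they were -0.423 for Naglu, -0.602 for Sgsh, -0.676 for Arsg, -0.672 for Gusb, -0.653 for Ids and 0.494 for Idua.

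**Figure D3:**
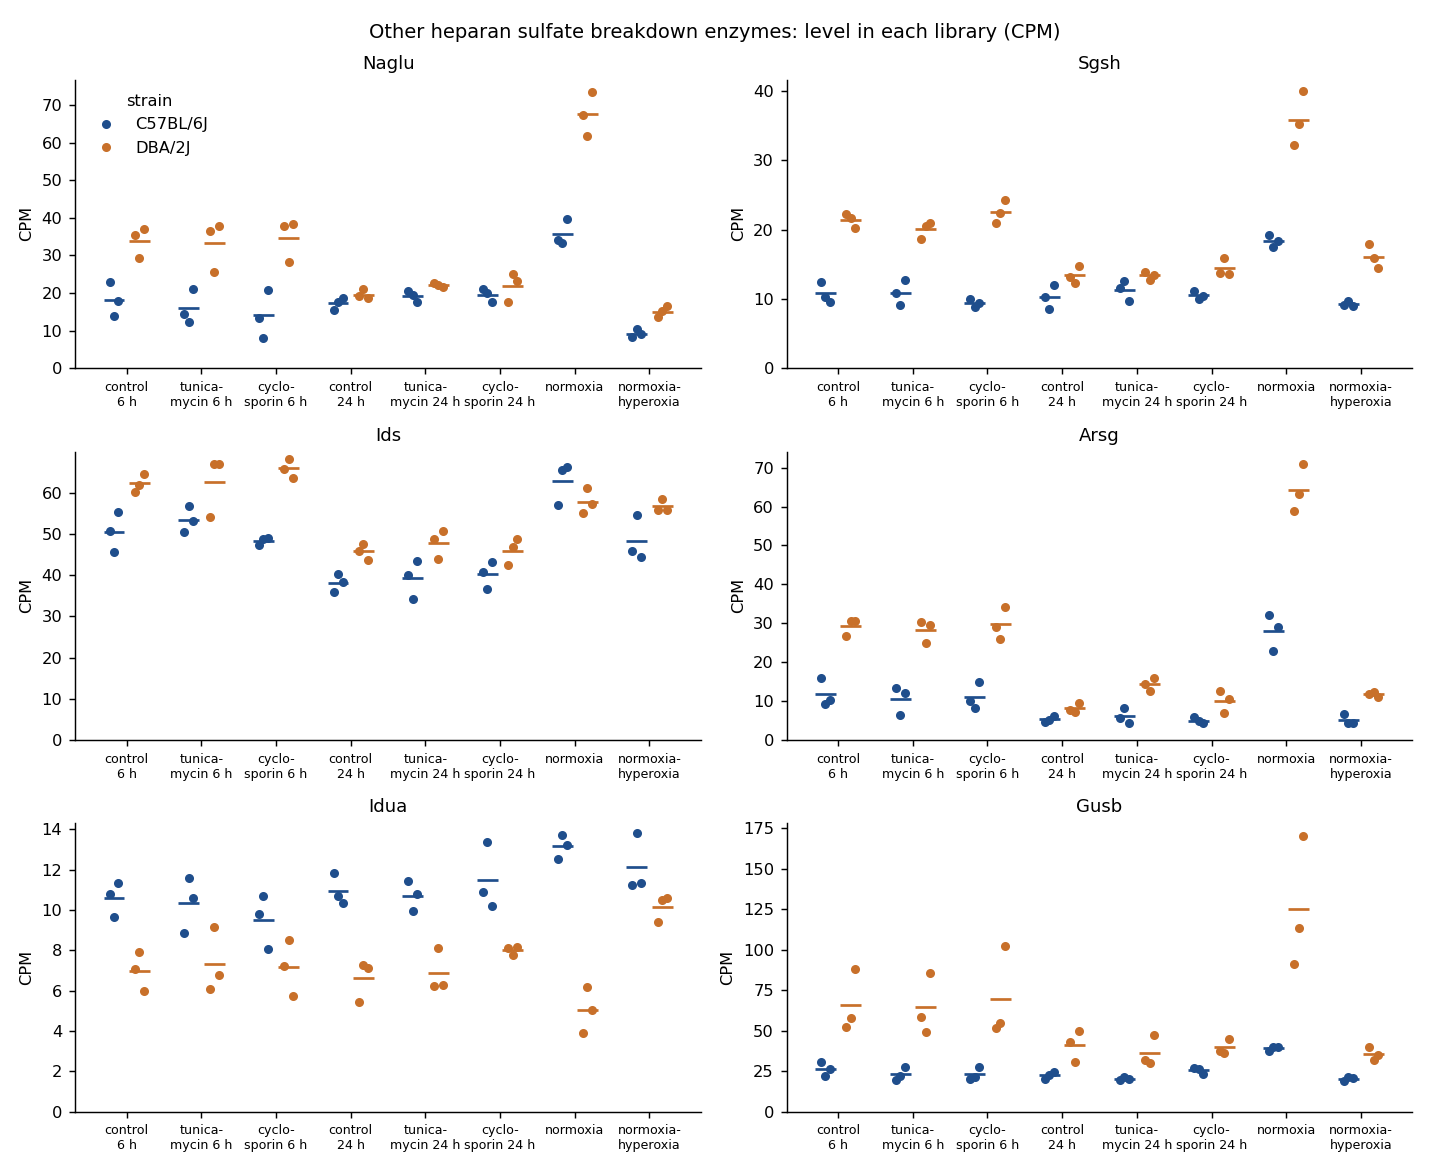
Levels in CPM (vertical axes, linear scale) of Naglu, Sgsh, Ids, Idua, Arsg and Gusb in each of the 48 libraries by condition and strain. Dots are libraries and bars are group means. Naglu, Sgsh, Arsg and Gusb peaked under normoxia in both strains, with Arsg reaching 58.8 to 70.8 CPM in DBA/2J.

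Over time in culture 5 of the 6 genes fell. These were Naglu, Sgsh, Ids, Arsg and Gusb, from 6 h to 24 h in the controls as a mean of the strains, and Idua did not pass the test. The median log2 change of the 6 was -0.643, against -0.019 over all genes tested, in a comparison where 72% of all genes were called and 37.4% were lower.

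Arsg, the 3-O-sulfatase, changed most of the 6. In C57BL/6J it was at 15.8, 9.36 and 10.2 CPM at 6 h and at 4.68, 5.24 and 6.06 CPM at 24 h, and in DBA/2J at 26.6, 30.6 and 30.6 CPM and then at 7.75, 7.15 and 9.54 CPM. The times did not overlap in either strain. The mean log2 change of Arsg was -1.72 (SE 0.131, edgeR adjusted p = 2.68e-08). Naglu, the enzyme that acts on Hgsnat's product, was at 22.9, 13.8 and 17.95 CPM at 6 h and 15.6, 17.6 and 18.7 CPM at 24 h in C57BL/6J. In DBA/2J Naglu was at 35.4, 29.4 and 37.1 CPM and then at 19.1, 20.95 and 18.7 CPM. Its times overlapped in C57BL/6J and were apart in DBA/2J, and its mean log2 change was -0.65 (SE 0.107, adjusted p = 6.66e-05). The strain difference in this change was -0.60 (adjusted p = 0.24).

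Sgsh, the enzyme before Hgsnat in the order, changed by -0.59 (SE 0.0974, edgeR adjusted p = 6.56e-05) as a mean of the strains. It was at 22.2, 21.7 and 20.2 CPM in DBA/2J at 6 h and at 13.2, 12.3 and 14.7 CPM at 24 h, without overlap. In C57BL/6J Sgsh was at 12.5, 10.3 and 9.62 CPM and then at 10.3, 8.58 and 11.95 CPM, with overlap. The C57BL/6J change of -0.35 (adjusted p = 0.0411) passed the test by little. The call was lost in 5 of the 6 other ways of processing. The change became -0.08 (adjusted p = 0.64) with library totals in place of TMM factors and -0.33 without the filter on low counts (adjusted p = 0.111), with RLE size factors (0.0542) and by DESeq2 (0.0538), and the replicate block gave -0.35 (adjusted p = 0.0671). The call was also lost in 7 of 12 fits with 1 library removed, with adjusted p up to 0.209 (without C57BL/6J control 6 h replicate 1).

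Ids, the iduronate sulfatase, fell in both strains, from 50.7, 45.5 and 55.3 CPM to 35.8, 40.2 and 38.4 CPM in C57BL/6J and from 60.2, 61.95 and 64.6 CPM to 45.9, 47.6 and 43.8 CPM in DBA/2J. All Ids libraries at 24 h were below all at 6 h within a strain, with a mean log2 change of -0.64 (SE 0.0606, edgeR adjusted p = 2.52e-07). Gusb, the glucuronidase, fell by 0.66 on the log2 scale (SE 0.152, adjusted p = 0.00164), and Idua changed by -0.23 (SE 0.106, adjusted p = 0.064). Idua passed the test without C57BL/6J control 6 h replicate 2 (adjusted p = 0.0495) or without DBA/2J control 6 h replicate 3 (adjusted p = 0.0373).

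By strain, 3 of the 6 fell in C57BL/6J, Sgsh among them by the call described above, where 61.5% of all genes were called and 32.6% were lower, and 5 of 6 fell in DBA/2J, where 62% were called and 31.8% were lower. None of the 6 had a strain difference in this change that passed the test, in a comparison that called 0.69% of all genes. Naglu alone of the 6 was called for it without the filter on low counts (log2 -0.68, edgeR adjusted p = 0.0264) and without C57BL/6J control 6 h replicate 1 (-0.85, adjusted p = 0.0396). In the drug libraries, as a mean of the strains, 5 of the 7 genes fell from 6 h to 24 h and Hgsnat rose with tunicamycin, where 70.9% of all genes were called. With cyclosporin A, 4 fell and Hgsnat rose, where 70% were called. In C57BL/6J alone, Ids and Arsg fell and Hgsnat rose under each drug, where 60.9% of all genes were called with tunicamycin and 56% with cyclosporin A. In DBA/2J alone, Naglu, Sgsh, Ids, Arsg and Gusb fell under each drug and Hgsnat was not called, where 59.8% and 59.9% were called. Sgsh in C57BL/6J with cyclosporin A had a CPM ratio of 1.12 over time, without overlap, and a log2 change after TMM of -0.13 (adjusted p = 0.333). As a mean of the strains, Arsg fell by 1.09 with tunicamycin (SE 0.182, adjusted p = 0.000168) and by 1.66 with cyclosporin A (SE 0.181, adjusted p = 4.72e-06). With library totals in place of TMM factors the calls of Naglu with tunicamycin (-0.16, adjusted p = 0.279) and of Gusb with cyclosporin A (-0.33, adjusted p = 0.0879) were lost.

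Under normoxia, 5 of the 6 genes were above the 24 h controls as a mean of the strains. Naglu, Sgsh, Ids, Arsg and Gusb rose, in a comparison where 82% of all genes were called and 42.4% were higher. The median log2 change of the 6 was 1.444, against 0.053 over all genes. In C57BL/6J alone 6 of 6 rose, where 76.1% of all genes were called and 38.8% were higher, and in DBA/2J 5 of 6 rose, where 74.3% were called and 38.8% were higher. These contrasts share the 24 h controls with the comparison over time.

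Arsg rose most, to 32.2, 22.8 and 29.03 CPM in C57BL/6J and 58.8, 63.1 and 70.8 CPM in DBA/2J. All Arsg libraries under normoxia exceeded all controls of their strain at 24 h and at 6 h, and the log2 change against the 24 h controls was 2.97 (SE 0.103, edgeR adjusted p = 3.3e-13). Naglu was at 34.03, 33.4 and 39.7 CPM in C57BL/6J and at 67.5, 61.7 and 73.5 CPM in DBA/2J, also above all controls of each strain, with a log2 change of 1.69 (SE 0.0703, adjusted p = 2.66e-12). Sgsh reached 19.3, 17.4 and 18.3 CPM in C57BL/6J and 32.3, 35.2 and 40.1 CPM in DBA/2J. Its log2 change was 1.41 (SE 0.0851, adjusted p = 2.42e-10), again with no overlap.

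Gusb reached 37.6, 40.3 and 40.2 CPM in C57BL/6J and 91.2, 113.6 and 170.5 CPM in DBA/2J. The DBA/2J libraries of Gusb were spread widely, with replicate 3 highest, and all lay above the 24 h controls at 43.2, 30.7 and 50 CPM. The log2 change of Gusb was 1.48 (SE 0.155, edgeR adjusted p = 3.43e-06). Ids was at 56.95, 65.6 and 66.2 CPM in C57BL/6J and at 55.1, 61.02 and 57.3 CPM in DBA/2J, with a log2 change of 0.80 (SE 0.0548, adjusted p = 1.14e-09). In DBA/2J the Ids libraries under normoxia overlapped those of the 6 h controls.

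Idua, the iduronidase, differed in behaviour from the other 5. It was at 12.6, 13.7 and 13.2 CPM in C57BL/6J under normoxia against 11.9, 10.7 and 10.3 CPM in the 24 h controls. In DBA/2J it was at 3.89, 6.20 and 5.05 CPM against 5.46, 7.26 and 7.10 CPM. The C57BL/6J libraries lay above their controls (log2 0.48, edgeR adjusted p = 0.00977; 0.26, adjusted p = 0.139 with library totals), and the DBA/2J libraries overlapped theirs (log2 -0.07, adjusted p = 0.721; -0.40, adjusted p = 0.0457 with library totals). Idua's mean log2 change was 0.20 (SE 0.112, edgeR adjusted p = 0.105). It was -0.07 with library totals in place of TMM factors, so the sign depends on the scaling, and 0.28 (adjusted p = 0.026) without DBA/2J normoxia replicate 1. Slc26a1, an anion transporter gene that overlaps Idua, had 118.4 ± 32.4 CPM in C57BL/6J slices and 519.1 ± 18.2 CPM in DBA/2J slices kept under normoxia, higher in DBA/2J where Idua was lower.

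**Figure D4:**
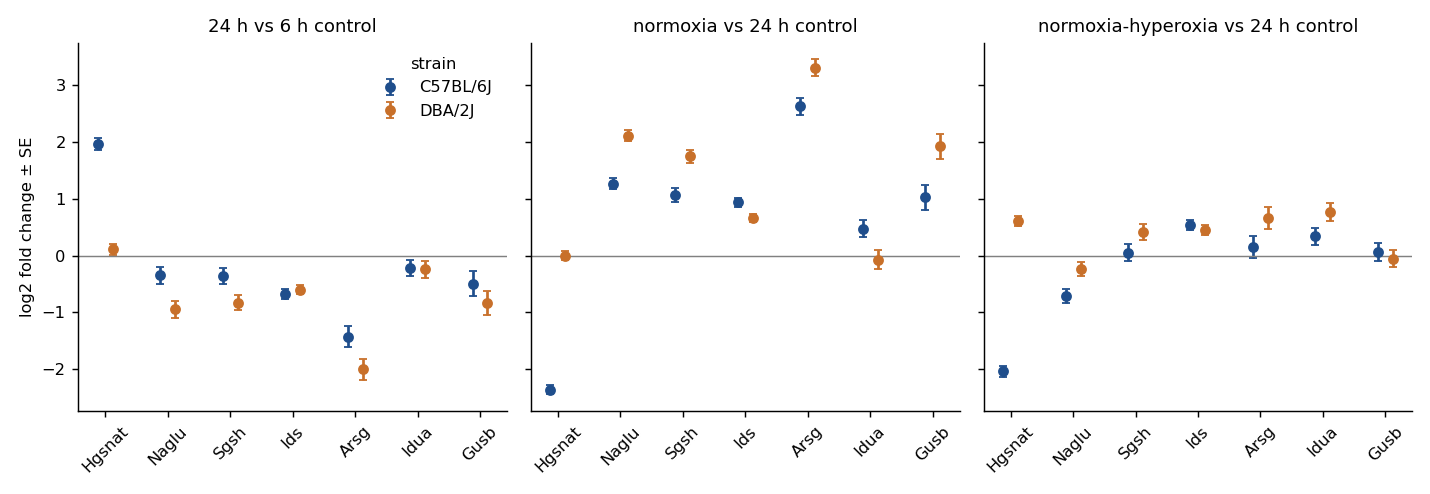
Log2 fold change with its standard error (vertical axes) of the 7 genes in each strain for 24 h against 6 h controls, normoxia against 24 h controls and normoxia-hyperoxia against 24 h controls. The Hgsnat values share control libraries used in the choice of the gene and are a description, and Arsg has the largest change under normoxia, 2.63 in C57BL/6J and 3.32 in DBA/2J.

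The rise under normoxia was larger in DBA/2J for 3 of the 6 genes, where 17% of all genes had a strain difference and 10.1% changed more upward in DBA/2J. Ids and Idua changed more upward in C57BL/6J, by differences that did not pass the edgeR test (adjusted p = 0.0976 and 0.11). These passed in 3 and 1 of 18 alternative settings. For Ids the ratio of mean CPM over the 24 h controls was 1.65 in C57BL/6J and 1.26 in DBA/2J. Naglu rose by 1.27 in C57BL/6J and 2.11 in DBA/2J on the log2 scale, a difference of 0.85 (SE 0.139, edgeR adjusted p = 0.00103). Sgsh rose by 1.07 and 1.75, a difference of 0.68 (SE 0.169, adjusted p = 0.0133), and Arsg by 2.63 and 3.32, a difference of 0.68 (SE 0.205, adjusted p = 0.0328). Gusb rose by 1.03 and 1.93, and its difference of 0.90 (SE 0.306, adjusted p = 0.0693) did not pass the test. It passed in 4 of 18 alternative settings, with adjusted p from 2.61e-08 to 0.202 over all of them. Among these 4 were the fit without DBA/2J normoxia replicate 1 (1.07, adjusted p = 0.0268) and that with the replicate block (0.88, adjusted p = 0.0129).

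Some of these calls were lost when 1 library was left out. The difference for Sgsh was 0.48 (edgeR adjusted p = 0.0862) without C57BL/6J control 24 h replicate 3 and 0.51 (adjusted p = 0.0572) without DBA/2J control 24 h replicate 2. The call for Arsg was lost in 10 of 18 alternative settings, with adjusted p from 0.00219 to 0.268 over all of them. Among these, leaving out C57BL/6J control 24 h replicate 3 gave 0.51 (adjusted p = 0.159), DBA/2J control 24 h replicate 2 gave 0.48 (0.131) and DBA/2J control 24 h replicate 1 gave 0.56 (0.11). Without C57BL/6J control 24 h replicate 2, C57BL/6J normoxia replicate 2 or 3, or DBA/2J normoxia replicate 2 or 3, its adjusted p was 0.0518 to 0.0677. In the fit of all 48 libraries together the difference for Naglu was 0.77 (adjusted p = 0.065).

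Under normoxia-hyperoxia, 3 of the 6 genes rose and 1 fell against the 24 h controls as a mean of the strains, where 68.2% of all genes were called, 34.1% higher and 34.1% lower. In C57BL/6J alone Ids rose and Naglu fell, where 57.4% of all genes were called. In DBA/2J alone Ids, Idua, Arsg and Sgsh rose and none fell, where 57.3% were called. Naglu was at 8.20, 10.3 and 9.07 CPM in C57BL/6J and 13.6, 15.1 and 16.5 CPM in DBA/2J, below all 24 h controls of each strain (log2 -0.47 as a mean of the strains, SE 0.0873, edgeR adjusted p = 0.00021). Ids rose by 0.49 (SE 0.0654, adjusted p = 8.12e-06), Idua by 0.55 (SE 0.105, adjusted p = 0.000273) and Arsg by 0.41 (SE 0.136, adjusted p = 0.0153). Arsg was at 6.76, 4.30 and 4.39 CPM in C57BL/6J and 11.8, 12.3 and 10.98 CPM in DBA/2J, overlapping the controls in C57BL/6J and apart in DBA/2J. Its change was 0.28 (adjusted p = 0.0532) without C57BL/6J normoxia-hyperoxia replicate 1 and 0.24 (adjusted p = 0.135) with library totals. The Naglu change was -0.71 in C57BL/6J (adjusted p = 0.000183) and -0.23 in DBA/2J (adjusted p = 0.119). Sgsh (0.23, adjusted p = 0.0526) and Gusb (0.00, adjusted p = 0.986) did not pass as means of the strains, although Sgsh passed in 5 of 18 alternative settings. The call of Sgsh in DBA/2J (0.41, adjusted p = 0.022) was lost in 3 of 18 alternative settings. The median of the 6 was 0.32, against 0.004 over all genes, and none of the 6 had a strain difference that passed, where 1.43% of all genes did.

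Set against normoxia directly, normoxia-hyperoxia lowered Naglu by 2.15 (SE 0.0833, edgeR adjusted p = 5.26e-12), Arsg by 2.55 (SE 0.117, adjusted p = 5.12e-11), Gusb by 1.46 (SE 0.127, adjusted p = 3.11e-07), Sgsh by 1.16 (SE 0.078, adjusted p = 2.35e-09) and Ids by 0.29 (SE 0.0661, adjusted p = 0.000959) on the log2 scale. Idua rose by 0.36 (SE 0.106, adjusted p = 0.00602). Thus 5 fell and 1 rose, where 73.5% of all genes were called, 36.5% lower and 37% higher, and the median of the 6 was -1.308 against 0.02. Both of these comparisons share the normoxia-hyperoxia libraries, which include the library with the lowest total.

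A strain difference between normoxia-hyperoxia and normoxia was called for 2 of the 6, where 18.2% of all genes were called. Under normoxia-hyperoxia, Idua had 9.42, 10.5 and 10.6 CPM in DBA/2J slices, above all DBA/2J normoxia libraries, and at 11.2, 13.8 and 11.3 CPM in C57BL/6J, overlapping normoxia. The difference between the strains' changes was 0.96 for Idua (SE 0.212, edgeR adjusted p = 0.0068). Gusb fell by 0.95 in C57BL/6J and by 1.97 in DBA/2J, to 18.95, 21.6 and 20.8 CPM and to 40.2, 31.7 and 34.8 CPM, a difference of -1.02 (SE 0.251, adjusted p = 0.0156).

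Of the other 6 genes, Naglu, Sgsh, Arsg and Gusb had a higher mean CPM in DBA/2J in all 8 conditions, opposite to Hgsnat. Ids had one in all but normoxia, where its ratio of DBA/2J over C57BL/6J was 0.919, with overlap. In all 8 conditions every DBA/2J library lay above every C57BL/6J library in CPM, which scales by library totals, for Sgsh, Arsg and Gusb. Naglu did so in all but cyclosporin A at 24 h, and Ids did so in 5, although the edgeR test called Ids between the strains with cyclosporin A at 6 h alone (adjusted p = 0.0268). After TMM normalization neither Sgsh nor Naglu was called in the 24 h controls or with either drug at 24 h. For Sgsh the edgeR adjusted p was 0.0801 in the 24 h controls and 0.0554 with cyclosporin A. Of all genes tested, the share higher in DBA/2J without overlap was 32.4% in controls, 30.1% with tunicamycin and 35.9% with cyclosporin A at 6 h. It was 27.1%, 21.5% and 25.4% in the same order at 24 h, 30.7% under normoxia, 27.2% under normoxia-hyperoxia and 7.57% in all 8 conditions. Idua, like Hgsnat, was higher in C57BL/6J, without overlap in 6 of the 8 conditions and with overlap under both drugs at 6 h. The share of all genes apart in 5 or 6 of the 8 conditions was not counted. Of all genes, the share higher in C57BL/6J without overlap was 11.5%, 12.9% and 13.2% at 6 h in controls, with tunicamycin and with cyclosporin A, 13.8%, 13.2% and 11.4% at 24 h, 27.5% under normoxia and 11.3% under normoxia-hyperoxia. In the 6 h controls Naglu was higher in DBA/2J by 0.76 (SE 0.149, edgeR adjusted p = 0.00203), Sgsh by 0.84 (SE 0.136, adjusted p = 0.000447), Arsg by 1.17 (SE 0.174, adjusted p = 0.000233) and Gusb by 1.19 (SE 0.214, adjusted p = 0.00166). Idua was lower in DBA/2J (log2 -0.74, SE 0.149, adjusted p = 0.00229) and Ids did not pass (0.16, adjusted p = 0.199). Thus 5 of the 6 differed in the 6 h controls, where 26.2% of all genes did. In the same controls Slc26a1, which overlaps Idua, had a mean of 60.6 ± 6.71 CPM in C57BL/6J slices and of 239.4 ± 31.4 CPM in DBA/2J slices.

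In the 24 h controls 3 of the 6 differed between strains, where 22.2% of all genes did. Gusb was higher in DBA/2J by 0.85 (SE 0.217, edgeR adjusted p = 0.0142) and Arsg by 0.59 (SE 0.195, adjusted p = 0.0427), and Idua was lower (log2 -0.77, SE 0.151, adjusted p = 0.00201). The call for Arsg was lost with the replicate block (0.58, adjusted p = 0.0563) and in 8 of 12 fits with 1 library removed, with adjusted p up to 0.165, the highest without DBA/2J control 24 h replicate 3. The call for Gusb was lost without C57BL/6J control 24 h replicate 1 (adjusted p = 0.0594), DBA/2J control 24 h replicate 1 (0.0523) or DBA/2J control 24 h replicate 3 (0.0624). Naglu, with means of 17.3 ± 1.56 CPM (C57BL/6J) and 19.6 ± 1.21 CPM (DBA/2J), differed by 0.15 on the log2 scale (SE 0.152, adjusted p = 0.525).

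Under normoxia 5 of the 6 differed, where 46.8% of all genes did. Gusb was higher in DBA/2J by 1.74 (SE 0.175, edgeR adjusted p = 8.77e-06), Arsg by 1.26, Sgsh by 1.04 and Naglu by 0.99, while Idua was lower (log2 -1.32, SE 0.151, adjusted p = 7.58e-06). Under normoxia-hyperoxia 4 of the 6 were higher in DBA/2J, where 25.7% of all genes differed and 14.3% were higher. Gusb's call there (0.71, adjusted p = 0.0132) was lost without C57BL/6J normoxia-hyperoxia replicate 1 (0.0536) or DBA/2J normoxia-hyperoxia replicate 1 (0.0749). The counts with the drugs include Hgsnat, which was picked for a strain-dependent change and was called in each of them. The control and oxygen counts leave it out, so the counts are not alike. With Hgsnat, 6 of 7 differed with tunicamycin at 6 h (21.1% of all genes) and 7 of 7 with cyclosporin A at 6 h (32.9%). In this 6 h fit same-numbered libraries of a strain correlated. The replicate block for strain contrasts instead joined the same numbers across the strains, a pairing that was not examined. With that block 5500 genes differed with tunicamycin in place of 3508, while no member lost its call. Naglu (0.95, adjusted p = 0.0414) and Idua (-0.60, adjusted p = 0.0448) with tunicamycin, and Ids (0.29, adjusted p = 0.0268) and Idua (-0.57, adjusted p = 0.0408) with cyclosporin A, lost theirs when any of several libraries was left out, with adjusted p up to 0.161. The call for Naglu with cyclosporin A at 6 h (edgeR adjusted p = 0.014) was lost in 1 of 18 alternative settings (0.0511). At 24 h, 4 of 7 differed with tunicamycin (14.8%) and with cyclosporin A (18.7%), namely Arsg and Gusb higher and Hgsnat and Idua lower in DBA/2J. With cyclosporin A at 24 h the calls for Arsg (0.92, adjusted p = 0.027) and Gusb (0.54, adjusted p = 0.0299) were lost when any of 4 and 5 of the cyclosporin A libraries were left out, with adjusted p up to 0.115 and 0.105. The call for Idua there (edgeR adjusted p = 0.0117) was lost in 1 of 18 alternative settings (0.0548).

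No member that was tested passed the threshold for either drug against the controls of the same time. No gene of 16551 tested was called by edgeR for tunicamycin at 6 h as a mean of the strains (281 at an unadjusted p under 0.05), and none of 16538 for cyclosporin A at 6 h (734 unadjusted; 51 by DESeq2 with adjustment). At 24 h, 233 genes or 1.38% were called for tunicamycin and none of 16887 for cyclosporin A (1107 unadjusted; 22 by DESeq2 with adjustment). Arsg came closest among the members. With tunicamycin at 24 h it was at 5.76, 8.24 and 4.25 CPM in C57BL/6J and at 14.3, 12.6 and 15.9 CPM in DBA/2J, where all 3 libraries exceeded the controls, while the C57BL/6J libraries overlapped theirs. The mean log2 difference of Arsg was 0.52 (SE 0.148, adjusted p = 0.116). It passed by DESeq2 (adjusted p = 0.035), without the filter on low counts (0.0162) and without C57BL/6J tunicamycin 24 h replicate 3 (0.0321).

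Proximal tubule markers moved in the same comparisons as Naglu, Sgsh, Arsg and Gusb. All 8 markers, none of them at 0, fell from 6 h to 24 h in the controls (median log2 change -2.678), rose from the 24 h controls to normoxia (3.667) and fell from normoxia to normoxia-hyperoxia (-4.807). Their summed level was 3534 to 7211 CPM in C57BL/6J and 8257 to 9596 CPM in DBA/2J at 6 h, and 567.8 to 881.8 and 1354 to 2863 CPM at 24 h. Under normoxia it was 7572 to 10880 and 16360 to 18060 CPM, and under normoxia-hyperoxia 296.2 to 415.1 and 838.6 to 1259 CPM. In these 4 conditions every range in DBA/2J lay above that in C57BL/6J. Across the 16 groups, the log2 marker sum had a correlation with log2 group means of 0.893 for Arsg, 0.775 for Naglu, 0.748 for Ids, 0.707 for Gusb, 0.703 for Sgsh, -0.511 for Idua and -0.643 for Hgsnat. Other marker lists moved too. In C57BL/6J, intercalated cell markers (4 genes) summed to 357.8 to 403.4 CPM at 6 h, 91.98 to 104.9 CPM at 24 h, 414.2 to 480.4 CPM under normoxia and 426.4 to 781 CPM under normoxia-hyperoxia. Distal convoluted tubule markers (3 genes) summed to 4032 to 4650, 727.2 to 1173, 3018 to 4132 and 4330 to 7319 CPM in the same groups. In DBA/2J, distal convoluted tubule sums under normoxia (1646 to 2345 CPM) overlapped those of the 24 h controls (1538 to 2063 CPM). As a mean of the strains, all genes of both lists fell over time and rose under normoxia, and unlike the proximal tubule markers none fell from normoxia to normoxia-hyperoxia. Podocyte markers fell over time (4 of 4) and under normoxia (3 of 4). The part of all these markers in the results for the 7 genes was not tested.

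**Figure D5:**
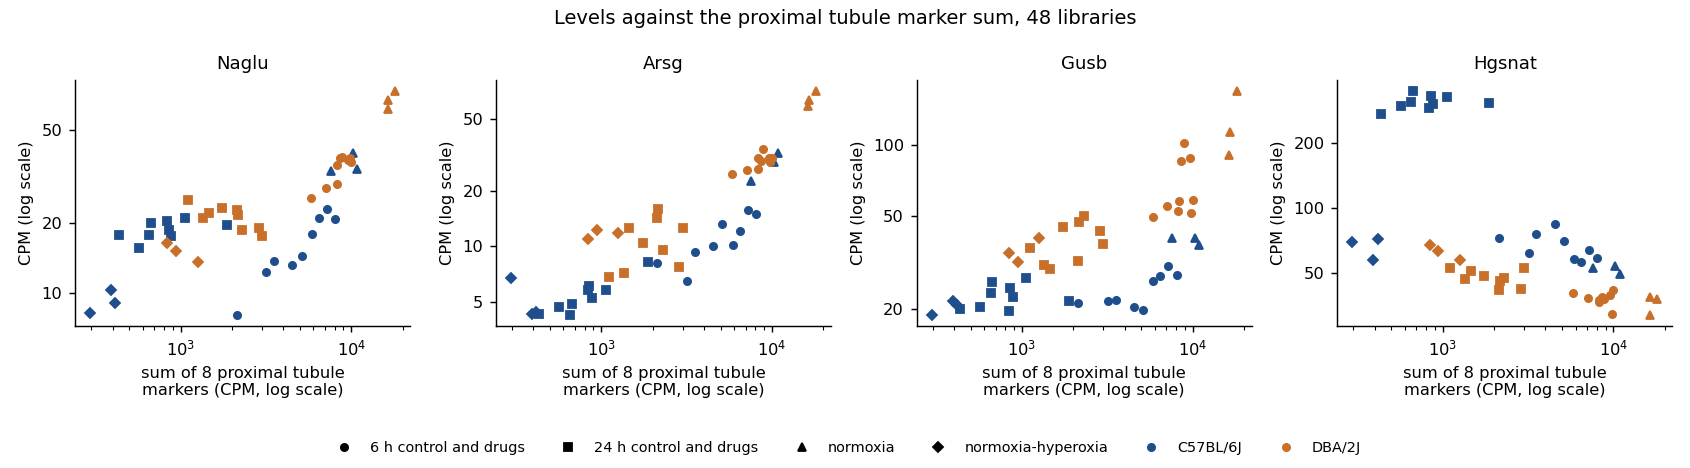
Level in CPM of Naglu, Arsg, Gusb and Hgsnat (vertical axes, log scale) against the summed CPM of 8 proximal tubule markers (horizontal axis, log scale) in the 48 libraries, by strain and condition. Across group means Arsg had a correlation of 0.893 with the markers, and the 9 high Hgsnat libraries lie apart from the rest at low marker sums.

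The same marker sums were low in both strains at 24 h, where Hgsnat differed most between them. With tunicamycin at 24 h the sums were 433.3 to 1879 CPM in C57BL/6J and 1463 to 2163 CPM in DBA/2J, overlapping, with none of the 8 markers called between the strains, while Hgsnat was 6.547-fold lower in DBA/2J. With cyclosporin A at 24 h the sums did not overlap, at 656.1 to 1061 CPM and 1109 to 3000 CPM, with 1 of the 8 markers called, and Hgsnat was 6.833-fold lower in DBA/2J. Under normoxia-hyperoxia the C57BL/6J sum was below that of its 24 h controls, and Hgsnat was in its lower range. Macrophage markers (6 genes, none at 0) summed to 133.9 to 184.3 CPM in C57BL/6J and 192.3 to 227.6 CPM in DBA/2J 24 h controls, and to 305.7 to 388.6 CPM in DBA/2J normoxia-hyperoxia, where Hgsnat was highest in that strain. In C57BL/6J they summed to 183.6 to 199 CPM under normoxia and 173.5 to 220.2 CPM under normoxia-hyperoxia, ranges that reach from within to above that of its 24 h controls, while Hgsnat was far lower than in those controls. Endothelial markers summed to 983.3 to 1280 CPM in the C57BL/6J and 551.0 to 923.2 CPM in the DBA/2J 24 h controls. Mitochondrial transcripts took 5.96 to 7.87% of reads in the C57BL/6J and 3.39 to 3.6% in DBA/2J 24 h controls, and 22.8 to 25.6% and 11.8 to 12.8% under normoxia. The part of these values in the Hgsnat result was not tested.

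The other lysosomal enzymes of glycosaminoglycan breakdown and sulfatase activation moved with Naglu, Sgsh, Arsg and Gusb. Of 16 such genes, 14 fell and 2 rose from 6 h to 24 h in the controls (median log2 -0.818), where 72% of all genes were called and 37.4% were lower. Under normoxia 14 rose and 1 fell (median 1.374), where 82% were called and 42.4% were higher. From normoxia to normoxia-hyperoxia 13 fell and 1 rose (median -1.279), where 73.5% were called and 36.5% were lower. Galns, a sulfatase of keratan and chondroitin sulfate, rose by 2.97 under normoxia, and Neu1, the lysosomal sialidase, by 2.50. Over time in culture Arsb, a dermatan sulfate sulfatase, changed by -1.64. Hpse, the heparanase that cuts heparan sulfate chains internally, went the other way from these enzymes and had the direction of Hgsnat in C57BL/6J. Hpse was at a mean of 0.477 and 0.648 CPM in C57BL/6J and DBA/2J 6 h controls, at 2.82 and 3.17 CPM at 24 h and at 0.579 and 0.337 CPM under normoxia, with log2 changes of 2.19 over time and -2.49 under normoxia.

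Sumf1, which activates all sulfatases including Sgsh, Ids and Arsg, changed by -0.61 over time and by 1.25 under normoxia. Tfeb, a regulator of lysosomal genes, changed by -0.90 and 0.84.

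Of 30 general lysosomal genes, 20 fell and 6 rose over time (median -0.426), and 18 rose and 6 fell under normoxia (median 0.368). Beside these and the counts that follow, 72% of all genes were called over time and 37.4% were lower (median -0.019), and 82% were called under normoxia and 42.4% were higher (median 0.053). Smpd1 and Lipa, lysosomal lipid hydrolases, rose by 1.83 and 1.79 under normoxia, while Gla, an alpha-galactosidase, changed by -1.47 and Tfe3 by -1.28. Over time Ctsd, an aspartic protease, rose by 0.83. Of 27 tested genes of heparan sulfate synthesis (29 listed), 11 fell and 5 rose over time (median -0.13), and 12 rose and 8 fell under normoxia (median 0.106). Papss2, which makes the sulfate donor, rose by 2.25 under normoxia, and Hs3st1, the 3-O-sulfotransferase whose product Arsg undoes, changed by -2.64. Glce, the epimerase that makes iduronic acid, rose by 1.63 over time and changed by -1.77 under normoxia. Of 14 heparan sulfate core proteins, 8 fell and 2 rose over time (median -0.578), and 3 rose and 7 fell under normoxia (median -0.291). Among them Gpc4, a glypican, rose by 2.43 under normoxia, and Sdc1, a syndecan, changed by -1.36.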

How the data were processed

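The authors deposited 1 table of raw read counts without normalization, with 48 library columns, all used. Per the submitters' processing notes, the tools were bcl2fastq 2.20.0, FastQC 0.11.8, STAR 2.7.9a and featureCounts 1.5.1, with the build GRCm38. Per the labels' protocols, total RNA was made into stranded mRNA libraries. The strand setting, annotation release and read filters are not given in the sources used here. Symbols were matched for 55141 of 55487 IDs, with coordinates from GENCODE M21 (GRCm38).

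Each fit held the 12 libraries of 1 comparison (4 groups) and used edgeR 4.0.16 (R 4.3.3): filterByExpr, TMM, robust quasi-likelihood F test, 8 residual degrees of freedom, Benjamini-Hochberg adjustment over all genes tested. Group means were contrasted within strains, as means of the strains and as the strain difference (DBA/2J minus C57BL/6J). SE is the log2 change divided by the square root of F, and intervals use the t quantile at the total (residual plus prior) degrees of freedom. The 12 fits gave 48 contrasts. CPM used library totals. The scripts were tested on simulated data. Alternatives were DESeq2 1.42.0, RLE size factors, library totals, no filter, a replicate block, 1 fit of all 48 libraries and leaving out each library.

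The members and gene lists were chosen with earlier results of these data known. Named genes outside the members were the 2 largest called changes in each direction in each list, the 5 genes most like Hgsnat, and Hpse, Sumf1 and Tfeb. Some genes that this rule names are not reported here. Pomk and Star were singled out among the neighbours after their values were seen. The fit over tunicamycin and cyclosporin A at 6 h was the single one in which all 6 same-number pairs correlated above 0.1 in their deviations from group means (0.123 to 0.435). Those pairs lie within a strain, whereas the block for strain contrasts joined the same numbers across the strains and does not model them. With that block the Hgsnat strain difference was -0.75 with tunicamycin (edgeR adjusted p = 0.000328) and -1.14 with cyclosporin A (adjusted p = 9.99e-06). It counted 5500 genes in place of 3508 for tunicamycin.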

Additional observations from a re-analysis of the deposited data

Results flagged for a closer look

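Changes that differed between the strains by the interaction test were found for 6 members, namely 5 that were chosen by function and Hgsnat, for which they are given in the drug libraries alone. From the 24 h controls to normoxia, the strain difference (DBA/2J minus C57BL/6J, log2) was 0.85 for Naglu, 0.68 for Sgsh and 0.68 for Arsg, where 17% of all genes had a strain difference. Over the alternatives the adjusted p ranged from 2.28e-06 to 0.065 for Naglu, from 0.00226 to 0.0862 for Sgsh and from 0.00219 to 0.268 for Arsg. From normoxia to normoxia-hyperoxia the difference was 0.96 for Idua, with adjusted p from 0.00018 to 0.0189, and -1.02 for Gusb, with adjusted p from 7.77e-08 to 0.055, where 18.2% of all genes had one. From 6 h to 24 h the difference for Hgsnat was -1.95 with tunicamycin (adjusted p from 7.04e-25 to 0.00379) and -1.65 with cyclosporin A (adjusted p from 1.08e-13 to 0.013), where 0.379% and 0.262% of all genes had one, and no alternative changed either Hgsnat call.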

How the results depend on the processing

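Counts of called members moved by over 1.5 times under few alternatives. For the strain difference in the change from 6 h to 24 h controls the count was 0, and 1 without the filter. From 24 h controls to normoxia it was 3, and 1 in the fit of all 48 libraries. From normoxia to normoxia-hyperoxia it was 2, and 1 in that fit. For tunicamycin against control at 24 h it was 0, and 1 without the filter and by DESeq2. For the strain difference in the change from 6 h to 24 h with cyclosporin A it was 1, and 2 by DESeq2 and 3 in the fit of all 48 libraries. Leaving out 1 library each gave 0 to 1 for tunicamycin at 24 h, 1 to 3 for the strains at 24 h in controls, 1 to 5 for the strains with cyclosporin A at 24 h, 0 to 1, 1 to 4 and 1 to 3 for the strain differences over control time, under normoxia and over time with cyclosporin A. The cause was not tested. Idua took the other sign under normoxia as a mean of the strains with library totals (-0.068) and, in DBA/2J, without DBA/2J normoxia replicate 1 (-0.229 to 0.082 with a library left out). With library totals so did Neu1 under normoxia-hyperoxia (-0.017). Library totals moved the median of all genes by over 0.1 in 11 of 28 contrasts, from -0.22 to 0.263.

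The replicate block, where numbers did not pair the libraries, ended the calls of Arsg between strains in 24 h controls (adjusted p = 0.0563) and of Sgsh over time in C57BL/6J (0.0671), and added Gusb's strain difference under normoxia (0.0129) and its change over time in C57BL/6J (0.0191).

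Counts over all genes moved more. Strain differences over control time numbered 117, against 817 without the filter, 360 by DESeq2 and 71 with the block, and 46 to 226 with a library left out. Under normoxia-hyperoxia they numbered 247, against 1156, 686, 618 and, in the fit of all libraries, 409. Over time they numbered 65 with tunicamycin, against 134, 273, 17 and 187, and 45 with cyclosporin A, against 188 without the filter, 397 by DESeq2 and 483 in the fit of all libraries. Tunicamycin at 24 h changed 233 genes, against 395 without the filter and 527 by DESeq2. For the members' own results, besides the alternatives that left out a library, 835 counted as unchanged. These include Hgsnat differences without a test that moved by less than the spread between replicates. A call was lost in 22 and gained in 26. In 1 a change that was not called took the other sign, that of Idua under normoxia given above. Of the alternatives for Hgsnat differences given without a test, 10 with library totals and 5 with a library left out moved by more than the spread between replicates, all with the same sign. The 5 were without C57BL/6J control 6 h replicate 2 (2.117 over time in C57BL/6J, -2.043 for its strain difference and -0.798 between strains at 6 h) and, for the strain difference under normoxia, without C57BL/6J control 24 h replicate 3 or DBA/2J control 24 h replicate 1 (2.21 in the latter). The lowest counts in a library were 59 for Idua and 58 for Arsg.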

Other observations

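Gusb in DBA/2J was highest in replicate 3 in 7 of the 8 conditions. In the 6 h controls the 3 libraries were at 52.4, 57.9 and 88.1 CPM, with tunicamycin at 6 h at 58.4, 49.5 and 85.8 CPM, with cyclosporin A at 6 h at 51.6, 54.8 and 102.1 CPM, and under normoxia at 91.2, 113.6 and 170.5 CPM. Under normoxia-hyperoxia replicate 1 was highest, at 40.2, 31.7 and 34.8 CPM.

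Pqlc3 had the strongest negative correlation with Hgsnat over the 16 groups (r = -0.924), with means of 3.21 and 2.53 CPM in C57BL/6J and 4.94 and 4.33 CPM in DBA/2J controls at 6 h and 24 h.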
